A study of Homo sapiens with 19 samples.

Results

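The 10 genes of the contractile actin and myosin apparatus and of the CCN family (10 of the 31033 gene names on the array) were followed in THP-1 cells with and without vitamin C (vit C). They were ACTG2, ACTA2, MYH11, MYL9, TAGLN, CNN1, CALD1, TPM1, CYR61 and CTGF, found by their exact gene name among the probes that are not controls, and they had 24 probes. The genes were selected on their levels in the 8 groups described here, so their differences, between vit C-treated and untreated (UT) cells and between time-points, are given as a description, and the calls made on them are no independent test. THP-1 is a human monocytic leukaemia line. All cells had been differentiated into macrophage-like cells with 30 nM phorbol ester (PMA) overnight and rested, in medium with serum, before 0.1 mM vit C was added to the treated flasks. RNA was taken 8, 24, 48 and 96 h later, labelled with Cy3 and measured with 19 arrays of 1 colour. In order of time the UT groups held 2, 3, 2 and 3 arrays, while those with vit C held 3, 2, 2 and 2.

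Smooth muscle contracts when myosin filaments, whose heavy chain is MYH11 and whose regulatory light chain is MYL9, pull on filaments of the smooth muscle actins ACTA2 and ACTG2. Many genes of this apparatus are controlled by serum response factor (SRF), which binds CArG boxes and is switched on with its cofactors MKL1 and MKL2 when free actin is scarce. CYR61 and CTGF encode secreted matrix proteins of the CCN family and are widely used as target genes of YAP and TAZ, which act through TEAD factors. Macrophages that adhere to plastic also hold a large actin cytoskeleton, so some of these genes are active outside muscle.

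A level below is the log2 of the processed signal minus the 75th percentile of its array, so 0 is the brightness at that percentile. Where a gene had several probes, the brightest one stands for it, and levels of different genes are not compared because probes differ in efficiency. The 75th percentile was between 296.8 and 638.5 on 17 arrays and 806.3 and 923.7 on the 2 vit C-treated arrays of 96 h, and 57.6% to 72.8% of probes were marked well above background. Of the macrophage markers, 8 of 9 were well above background on every array and LYZ on 18. Among smooth muscle markers SMTN and LMOD1 were well above background on all 19 arrays, PLN on 3, DES on 1 and MYOCD, the muscle cofactor of SRF, on 0. Of the epithelial markers, EPCAM (listed as TACSTD1) and CDH1 were well above background on 0 arrays, KRT18 on 19 and KRT19 on 17. Of the endothelial markers, CDH5 was on 0, KDR and TEK on 2 each and VWF on 19. The arrays came from 4 slides, and at no time-point did a vit C-treated array share its slide with a UT array of that time. Slide and treatment therefore cannot be told apart within a time-point. In RNA from a whole flask, fewer cells that express a gene and less RNA per cell cannot be told apart.

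Of the 10 members, 9 had a probe well above background on at least 1 array. Without a measured level were CNN1 (calponin), with 3 probes that were well above background on 0 arrays, and CALD1 (caldesmon), of whose 4 probes 1 was well above background on 1 array. Both are proteins that bind actin filaments and restrain contraction, and no level is given for them. ACTG2, MYL9, TAGLN, TPM1 and CYR61 were measured on all 19 arrays, MYH11 on 17, and ACTA2 and CTGF on 14 each.

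**Figure D1:**
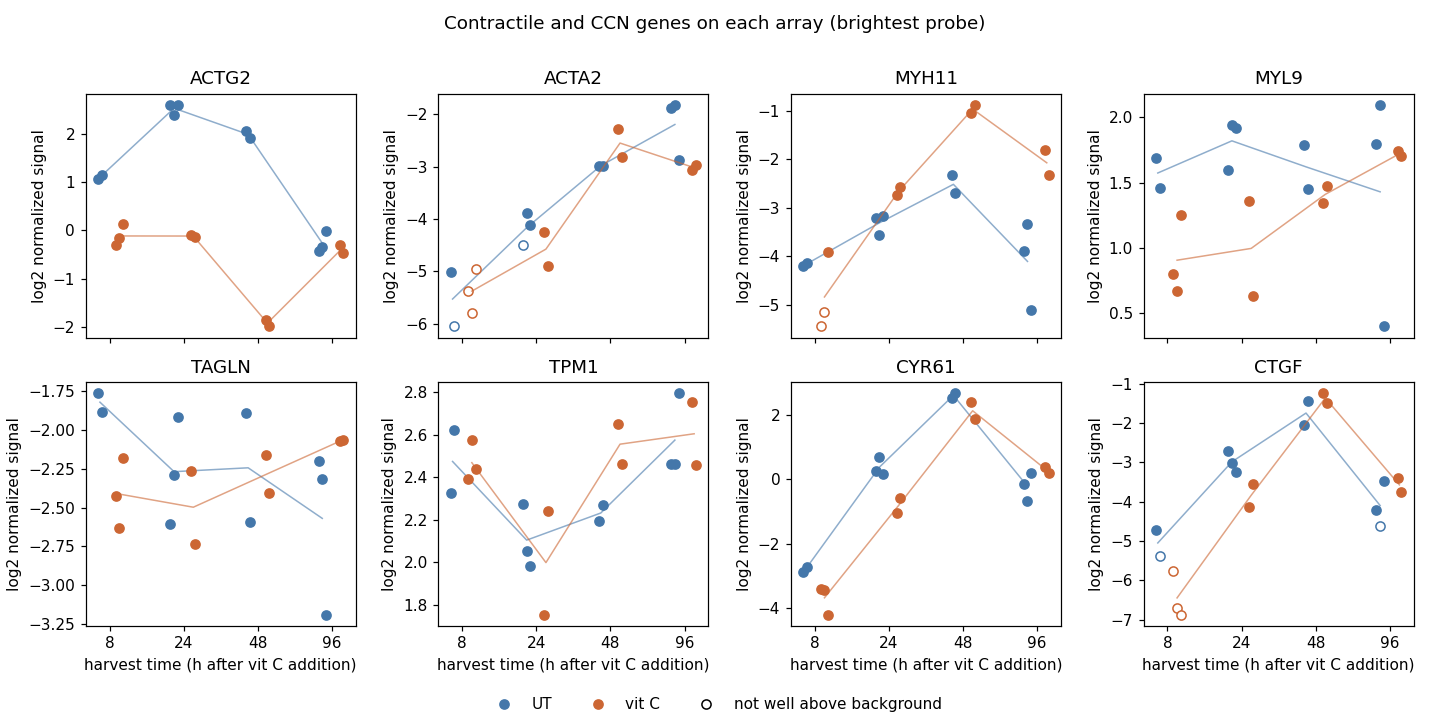
The log2 normalized signal (vertical axis, a scale per gene) of the brightest probe of 8 genes on each of the 19 arrays, by harvest time (horizontal axis), with UT cells in blue, vit C-treated cells in orange and lines through the group means. Open points were not well above background. The ACTG2 arrays of UT and vit C-treated cells lie apart at 8, 24 and 48 h and overlap at 96 h.

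ACTG2, the gamma actin of enteric smooth muscle, had the largest difference from UT cells among the members at 24 and 48 h. In UT cells its level was 1.06 and 1.15 at 8 h, 2.61, 2.40 and 2.61 at 24 h, 2.07 and 1.93 at 48 h, and -0.43, -0.34 and -0.01 at 96 h. With vit C it was -0.31, -0.16 and 0.13 at 8 h, -0.09 and -0.14 at 24 h, -1.86 and -1.99 at 48 h, and -0.30 and -0.47 at 96 h. Every vit C-treated array lay below every UT array at 8, 24 and 48 h, and the groups overlapped at 96 h. The log2 difference (vit C minus UT) was -1.22 (SE 0.187, n = 3 and 2) at 8 h, -2.66 (SE 0.187, n = 2 and 3) at 24 h, -3.92 (SE 0.205, n = 2 and 2) at 48 h and -0.12 (SE 0.187, n = 2 and 3) at 96 h. On a linear scale these are 2.33-fold, 6.31-fold and 15.2-fold lower signals at the earlier 3 time-points. When the fit also held a slide term, which rests on the UT arrays of 96 h because they lie on 2 slides, the differences were -1.48, -2.92 and -4.11 at 8, 24 and 48 h. With normexp, another background correction, the 48 h difference was -3.24.

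Sequence before the start of ACTG2 is shown because it holds the letters that SRF reads. The RefSeq promoter table (GRCh38.p14) had an entry for 6 of the 10 members, ACTG2, ACTA2, CNN1, CTGF, TPM1 and CALD1, and none for MYH11, MYL9, TAGLN and CYR61. The 250 bases before the ACTG2 start (chr2:73892758-73893007, plus strand) are printed 5′ to 3′ with 2 CArG boxes in capitals. A box was taken strictly as CC, then 6 letters that are each A or T, then GG.
ACTG2: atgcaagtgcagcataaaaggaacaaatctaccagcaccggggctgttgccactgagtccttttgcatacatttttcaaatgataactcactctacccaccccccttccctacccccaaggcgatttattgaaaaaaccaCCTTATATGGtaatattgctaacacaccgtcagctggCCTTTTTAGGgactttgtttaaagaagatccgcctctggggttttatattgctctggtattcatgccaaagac
The boxes begin 110 and 73 bases before the start. A search of all 35116 promoters of the table over the same 250 bases, in which a CArG box reads alike on both strands, found at least 1 box in 1.16% and at least 2 in 0.0313%. The windows of ACTA2, CNN1, CTGF, TPM1 and CALD1 held no match to this strict pattern. Boxes with a letter outside it were not searched, and SRF is known to bind such boxes before ACTA2. A match of letters is a description and does not show that a factor was bound in these cells.

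ACTA2, the alpha actin of vascular smooth muscle and of myofibroblasts, was near background at 8 h. In UT cells its level was -5.0 and -6.05 at 8 h, -4.50, -3.89 and -4.11 at 24 h, -2.98 and -2.99 at 48 h, and -1.89, -1.82 and -2.88 at 96 h. In vit C-treated cells it was -5.37, -5.80 and -4.96 at 8 h, where all 3 arrays were not well above background, -4.25 and -4.89 at 24 h, -2.28 and -2.82 at 48 h, and -3.07 and -2.97 at 96 h. The levels of both groups were higher at 48 and 96 h than at 8 h, and the vit C-treated arrays lay above the UT arrays at 48 h and below them at 96 h. The difference was -0.41 (SE 0.383, n = 2 and 3) at 24 h, 0.43 (SE 0.42, n = 2 and 2) at 48 h and -0.82 (SE 0.383, n = 2 and 3) at 96 h.

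MYH11, the heavy chain of smooth muscle myosin, was higher with vit C late in the series. Its UT level was -4.20 and -4.15 at 8 h, -3.22, -3.55 and -3.16 at 24 h, -2.33 and -2.70 at 48 h, and -3.89, -3.33 and -5.10 at 96 h. The vit C-treated level was -5.44, -5.15 and -3.92 at 8 h, the first 2 of them not well above background, -2.75 and -2.58 at 24 h, -1.06 and -0.88 at 48 h, and -1.82 and -2.33 at 96 h. The groups overlapped at 8 h, and every vit C-treated array lay above every UT array at the later 3 time-points. The difference was -0.66 (SE 0.462, n = 3 and 2) at 8 h, 0.65 (SE 0.462, n = 2 and 3) at 24 h, 1.55 (SE 0.506, n = 2 and 2) at 48 h and 2.03 (SE 0.462, n = 2 and 3) at 96 h, the last a 4.09-fold higher signal. With normexp the difference at 96 h was 0.79, and this probe was not called. Its second probe, designed on another transcript of the gene, followed the first with r = 0.99 over the 8 group means. It differed by 1.17 at 24 h, 1.71 at 48 h and 3.40 at 96 h. The 96 h difference was 2.35 without UT replicate 3, which was not well above background on this probe, and 3.99 without UT replicate 2. With a slide term in the fit the second probe differed by 2.53 (SE 1.15) at 24 h and 3.24 (SE 1.30) at 48 h. The first probe then differed by 0.98 (SE 0.825) and 1.79 (SE 0.935). At 8 h the 3 vit C-treated arrays of the second probe were not well above background and lay below both UT arrays, unlike the first probe. Processed signals there were 3.32 to 5.66 with vit C and 14.4 and 17.6 in UT cells. No size is given for this difference, which rests on signal near background and was -0.43 (SE 1.15) with the slide term. ACTG2 and MYH11 thus differed in opposite directions from UT cells at 24 and 48 h.

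MYL9, the light chain through which phosphorylation switches the motor on, is also used by non-muscle myosin. In UT cells its level was 1.69 and 1.46 at 8 h, 1.60, 1.94 and 1.91 at 24 h, 1.79 and 1.45 at 48 h, and 1.79, 2.09 and 0.40 at 96 h. With vit C it was 0.80, 0.67 and 1.25 at 8 h, 1.36 and 0.63 at 24 h, 1.34 and 1.48 at 48 h, and 1.74 and 1.70 at 96 h. The vit C-treated arrays were all lower at 8 and 24 h and overlapped the UT arrays later, where replicate 3 of UT cells at 96 h was the lowest. The differences were -0.67 (SE 0.39) at 8 h, -0.82 (SE 0.39) at 24 h, -0.21 (SE 0.427) at 48 h and 0.29 (SE 0.39) at 96 h.

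TAGLN (transgelin, SM22) cross-links actin filaments and is a common marker of smooth muscle. Its UT level was -1.76 and -1.88 at 8 h, -2.60, -2.29 and -1.92 at 24 h, -1.90 and -2.59 at 48 h, and -2.20, -2.32 and -3.19 at 96 h. In vit C-treated cells it was -2.43, -2.63 and -2.18 at 8 h, -2.26 and -2.73 at 24 h, -2.16 and -2.41 at 48 h, and -2.07 on both arrays at 96 h. The vit C-treated arrays lay below the UT arrays at 8 h and above them at 96 h, with overlap in between, and the differences of -0.59 (SE 0.311) and 0.50 (SE 0.311) were each under 1 in size. The second probe of the gene differed by 0.10 at 8 h, the opposite direction.

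TPM1, a tropomyosin that lies along the actin filament, is spliced into many forms in muscle and non-muscle cells. Its brightest probe stayed between 1.75 and 2.80 on the 19 arrays, and its differences between vit C-treated and UT cells were -0.01, -0.11, 0.32 and 0.03 at 8, 24, 48 and 96 h (SE 0.203 to 0.222). The 6 probes, all well above background on all arrays, disagreed in direction in all 7 comparisons, so the gene was removed from the calls. Correlation between probes over the 8 group means ran from 0.19 to 0.94. Probe 3 in order of brightness had UT levels of -0.52 and -0.63 at 8 h, -1.07, -0.88 and -1.26 at 24 h, -1.02 and -0.70 at 48 h, and -0.75, 0.37 and 0.61 at 96 h. Its levels with vit C were 0.43, 0.68 and 0.38 at 8 h, -0.40 and 0.24 at 24 h, 0.50 and 0.66 at 48 h, and 0.53 and 0.31 at 96 h. This probe was higher with vit C on every array at 8, 24 and 48 h, by 1.06, 0.99 and 1.44, and overlapped at 96 h, where UT replicates 2 and 3 were on the slide of the vit C-treated arrays of 8 and 24 h and replicate 1 was on that of the other UT arrays. With a slide term in the fit the differences of probe 3 were -0.18 (SE 0.38), -0.25 (SE 0.38) and 0.12 (SE 0.431) at 8, 24 and 48 h. Probe 5 differed by 1.30 at 96 h and by -0.43 to 0.01 before. The slide term turned other probes the opposite way, giving probe 5 differences of 0.74, 0.43 and 0.45 and probe 2 differences of 0.54, 0.28 and 1.09 at 8, 24 and 48 h, where probe 2 had -0.13, -0.39 and 0.26 without it.

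**Figure D2:**
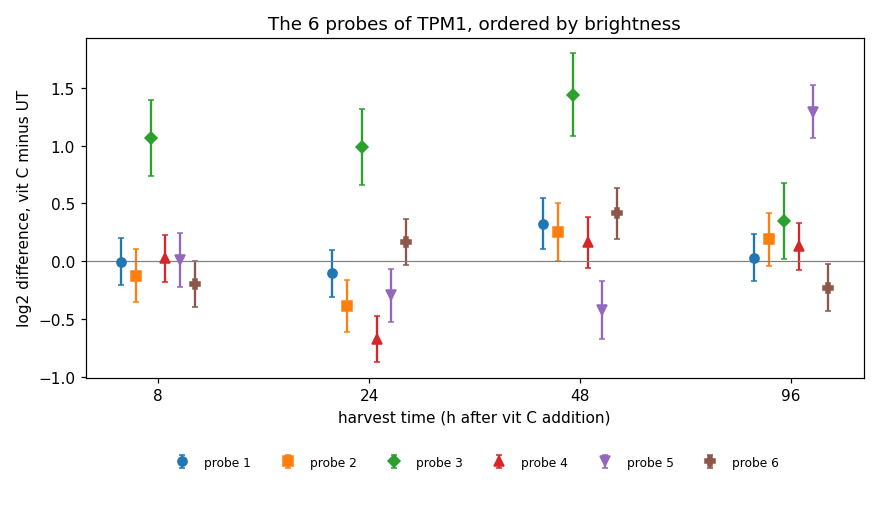
The log2 difference (vertical axis, vit C minus UT) of each of the 6 TPM1 probes at the 4 harvest times (horizontal axis), with bars of 1 standard error. Probe 3 lies near 1 or above at 8, 24 and 48 h while the others lie between -0.67 and 0.41, and probe 5 stands apart at 96 h.

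CYR61 (now CCN1) is a matricellular protein that binds integrins. Its UT level was -2.88 and -2.73 at 8 h, 0.27, 0.70 and 0.15 at 24 h, 2.53 and 2.69 at 48 h, and -0.16, -0.68 and 0.18 at 96 h. With vit C the level was -3.41, -3.44 and -4.20 at 8 h, -1.06 and -0.57 at 24 h, 2.39 and 1.87 at 48 h, and 0.37 and 0.20 at 96 h. On this probe the vit C-treated arrays lay below all UT arrays at 8, 24 and 48 h and above them at 96 h. Both groups had their highest levels at 48 h. The differences were -0.87 (SE 0.305), -1.19 (SE 0.305), -0.48 (SE 0.334) and 0.50 (SE 0.305). Its 3 probes followed each other with r of 0.98 to 0.99 over the 8 group means, and the second differed by -1.58, -1.31, -0.92 and 0.39. The second probe overlapped the UT arrays at 96 h, and the third overlapped them at 48 h (-0.24).

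CTGF (now CCN2), a matricellular protein of fibrosis and wound repair, also had its highest levels at 48 h in both groups. The UT level was -4.72 and -5.38 at 8 h, -2.72, -3.00 and -3.23 at 24 h, -2.06 and -1.43 at 48 h, and -4.20, -4.62 and -3.47 at 96 h. With vit C it was -5.77, -6.71 and -6.87 at 8 h, all not well above background, -4.13 and -3.54 at 24 h, -1.23 and -1.49 at 48 h, and -3.40 and -3.75 at 96 h. The vit C-treated arrays lay below the UT arrays at 8 and 24 h and overlapped them at 48 and 96 h. No fold is given at 8 h, where UT replicate 2 was also not well above background. The difference there was -1.40 (SE 0.387) as processed, 0 with signals floored at 20 and 0.0097 with normexp. The other differences were -0.85 (SE 0.387), 0.38 (SE 0.423) and 0.53 (SE 0.387) at 24, 48 and 96 h.

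The window before the CTGF start is shown because it holds the letters that TEAD factors read. It covers chr6:131951373-131951622 (GRCh38.p14, minus strand) and is printed 5′ to 3′ with each GGAATG in capitals.
CTGF: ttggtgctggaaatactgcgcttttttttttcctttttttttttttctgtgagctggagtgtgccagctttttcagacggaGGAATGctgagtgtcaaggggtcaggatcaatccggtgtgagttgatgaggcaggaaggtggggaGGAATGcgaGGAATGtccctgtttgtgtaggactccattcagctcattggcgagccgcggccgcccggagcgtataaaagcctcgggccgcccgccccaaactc
The 3 matches begin 169, 104 and 95 bases before the start. Searched on both strands over the same 250 bases, at least 1 GGAATG was in 11.9% of the 35116 promoters and at least 3 were in 0.0826%. A single match was in a window of ACTA2 and in each of 2 of the 4 windows of CALD1, and the ACTG2 window held none.

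**Figure D3:**
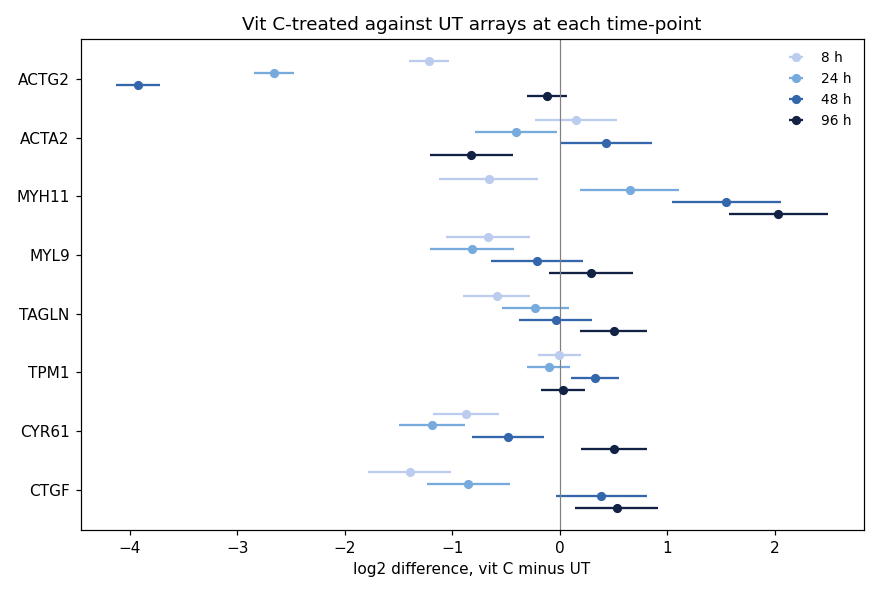
The log2 difference between vit C-treated and UT cells (horizontal axis) for the 8 measured genes (vertical axis) at 8, 24, 48 and 96 h (light to dark), with bars of 1 standard error. ACTG2 moves to -3.92 at 48 h and returns to -0.12 at 96 h, while MYH11 goes from -0.66 to 2.03.

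A gene was called where a probe differed by at least 1 on the log2 scale with a q of at most 0.05 over all genes tested, once any gene with probes of opposing sign had been set aside. At 8 h 0.330% of all genes tested were called higher with vit C and 0.223% lower, and of the 7 members tested ACTG2 and CYR61 were called lower. At 24 h the background was 0.835% higher and 0.839% lower, and ACTG2 and CYR61 were called lower of 9 members tested. At 48 h it was 2.10% higher and 1.53% lower, with ACTG2 called lower of 7 members tested. At 96 h it was 2.73% higher and 10.0% lower, with MYH11 called higher of 8 members tested. The rule that chose the members used these contrasts, so nothing is read from the counts. CYR61 was called by its second probe at 8 h and by its probes 2 and 3 at 24 h, and MYH11 by both of its probes. The median difference over the members with a brightest probe detected throughout 1 or both groups was -0.66, -0.62, 0.14 and 0.40 at 8, 24, 48 and 96 h (6, 8, 8 and 8 members), beside -0.08, -0.01, -0.07 and -0.05 over all genes so measured. These medians are a description too, and nothing is read from how they compare. A member could enter through 1 group alone, as MYH11 did at 8 h through UT cells and CTGF at 96 h through vit C-treated cells.

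The calls depended on the test, on single arrays and on the slide. With the test that the study's methods name, which takes each probe alone, 0 members passed after adjustment in any comparison, and with normexp or signals floored at 20 CYR61 was lost at 8 h. At 8 h no member was called without UT replicate 1 or 2 or vit C replicate 1 or 2, and ACTG2 alone without vit C replicate 3. In these fits the ACTG2 difference stayed between -1.34 and -1.12 and that of CYR61 probe 2 between -1.72 and -1.44. At 24 h CYR61 was lost without vit C replicate 2, with its probes 2 and 3 then at -1.47 and -1.44. At 96 h MYH11 was lost without either vit C-treated array, though its first probe was then at 1.77 or 2.29 and its second at 3.09 or 3.71, and ACTA2 was added as lower without UT replicate 3. With the slide as a fixed term 0 members were called at 8 h and ACTG2 alone at 24 and 48 h, and the term could not be fitted at 96 h. In that fit CYR61 probe 2 differed by -1.82 (SE 0.50) at 8 h and -1.55 (SE 0.50) at 24 h, beside -1.58 and -1.31 (SE 0.283 each) without the term. Probe 3 then differed by -0.36 (SE 0.404) and -1.20 (SE 0.404), beside -0.80 and -1.63 without it. Probe 1 differed by -0.78 (SE 0.523) and -1.09 (SE 0.523) with the term. Summed fibroblast marker signal (8 genes, log2) was 0.83 to 1.49 in UT and 2.37 to 2.62 in vit C-treated cells at 8 h, 1.84 to 2.03 and 2.28 to 2.91 at 24 h, 2.63 to 2.75 and 3.20 to 3.56 at 48 h, and 1.86 to 2.51 and 2.76 to 2.89 at 96 h. Of these markers, PDGFRA and THY1 were well above background on all arrays, DCN on 14, COL1A1 on 5, LUM on 4, COL3A1 on 2 and COL1A2 and POSTN on 0. With vit C the fibroblast markers DCN and LUM were called higher at 48 h, and at 96 h COL3A1, DCN and LUM were called, 2 higher and 1 lower. Of the macrophage markers ITGAM was called lower at 48 h and LYZ higher at 96 h. Summed smooth muscle marker signal (5 genes, log2) with vit C was -0.73 to -0.50 at 8 h and 1.38 to 1.61 at 24 h. At 48 h it was 1.41 to 1.43 and at 96 h 0.07 to 0.20, beside the UT values given below. The part of other cell types in the results was not tested.

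The time course of UT cells alone asks how the genes moved without vit C. It was compared with the 8 h UT arrays, and the UT arrays of 8, 24 and 48 h and 1 of those of 96 h lay on the same slide. At 24 h 1.37% of all genes tested were called higher than at 8 h and 1.26% lower, and ACTG2, CYR61 and CTGF were called higher of 8 members tested. The UT levels were also among those that chose the members, so these calls are a description too and nothing is read from their number. ACTG2 was 1.43 (SE 0.187) above its 8 h level, CYR61 3.18 (SE 0.305) and CTGF 2.07 (SE 0.387), and CTGF was not called without UT replicate 2 of 8 h (1.73) or with normexp (0.86). At 48 h the background was 5.54% higher and 3.36% lower, and ACTA2, CYR61 and CTGF were called higher of 8 members tested. CYR61 was 5.42 above its 8 h level (SE 0.334), CTGF 3.31 (SE 0.423) and ACTA2 2.54 (SE 0.42). With normexp CYR61 was 2.34 and 4.46 at 24 and 48 h, CTGF 1.53 and ACTA2 1.03 at 48 h, and ACTA2 was 1.53 with signals floored at 20. The ACTG2 difference at 48 h was 0.89 (SE 0.205), under the fold limit.

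At 96 h UT cells had 8.90% of all genes tested called higher than at 8 h and 7.16% lower, and of 7 members tested ACTA2 and CYR61 were called higher and ACTG2 lower. ACTA2 was 3.33 (SE 0.383) and CYR61 2.59 (SE 0.305) above the 8 h level, while the ACTG2 difference was -1.37 (SE 0.187). ACTA2 was well above background on 1 of the 2 UT arrays of 8 h, and its difference was 1.18 with normexp and 2.32 with signals floored at 20, while that of CYR61 was 1.90 with normexp. Every UT array of ACTG2 thus lay above those of 8 h at 24 h and below them at 96 h. CTGF was 0.95 above its 8 h level (SE 0.387). Without UT replicate 2 of 96 h, CTGF was also called higher and TAGLN lower. MYH11 was 0.86 and 1.66 above its 8 h level at 24 and 48 h, and its 2 probes disagreed in direction at 96 h. MYL9 and TAGLN were called at no time-point, with differences of -0.14 to 0.25 for MYL9 and -0.75 to -0.42 for TAGLN. Summed smooth muscle marker signal in UT cells (5 genes, log2) was -0.36 to 0.15 at 8 h, 1.45 to 1.67 at 24 h, 1.72 to 1.89 at 48 h and -0.03 to 0.12 at 96 h, with SMTN called higher at 24 and 48 h and MYOCD not well above background on any array. PDGFRA and DCN of the fibroblast markers were called higher at 48 h and DCN at 96 h, while the endothelial sum (4 genes) was between -0.11 and -0.02 at 8 h and between -2.28 and -2.17 at 48 h. The part of these markers in the time course was not tested. The comparisons share the 2 UT arrays of 8 h, so an error in these moves all of them together.

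**Figure D4:**
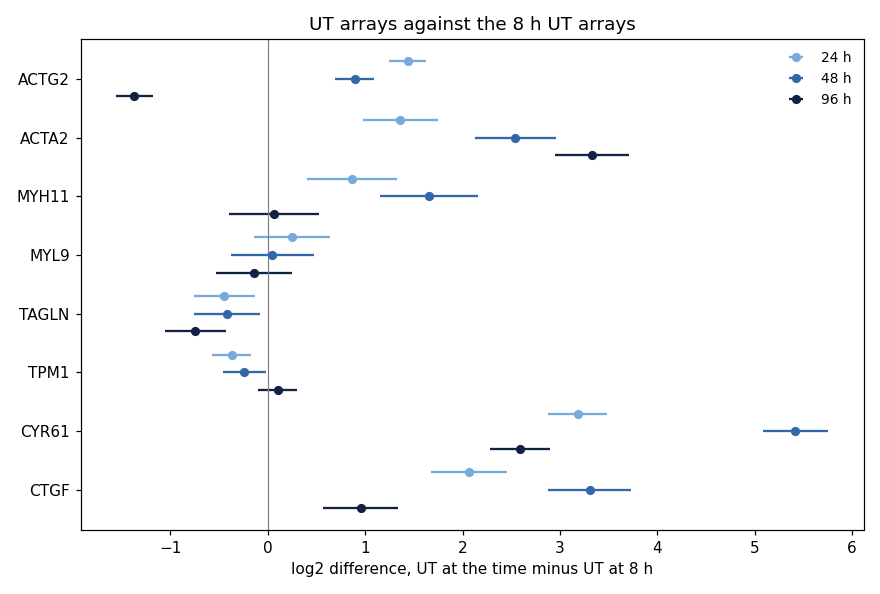
The log2 difference between UT cells at 24, 48 or 96 h (light to dark) and UT cells at 8 h (horizontal axis) for the 8 measured genes (vertical axis), with bars of 1 standard error. CYR61 and CTGF stand highest at 48 h, ACTA2 at 96 h, and ACTG2 goes from 1.43 to -1.37.

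Other genes of the same pathways were taken from 6 lists with 85 genes in all, namely SRF, YAP and TEAD regulators, smooth muscle genes, actin cytoskeleton genes, YAP and TEAD targets, other CCN genes and immediate early genes that SRF controls. Of those tested, 1 was called lower and 0 higher with vit C at 8 h, 3 lower and 0 higher at 24 h, 3 lower and 1 higher at 48 h, and 15 lower and 1 higher at 96 h. As a share that is 1.45%, 4.48%, 5.0% and 23.1% lower, beside the background given above. The lists were chosen with earlier results of these data known. These shares, those in UT cells and the q values of list genes are therefore a description and no independent test. Of the 15 at 96 h, 8 had a called probe detected throughout UT or vit C-treated arrays, and the slide of the vit C-treated arrays is theirs alone. SRF itself had differences of -0.61 (q = 0.163), -0.24, -0.27 and -0.37 at the 4 time-points, MKL1 of -0.27 to -0.003 and MKL2 of -0.52 to -0.10, and none was called.

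In the actin cytoskeleton list FHL2, an LIM protein that binds SRF, was lower with vit C at 8 h (-1.15, q = 0.0237) and 24 h (-1.25, q = 0.00849). FHL1, a related LIM protein, was lower at 24 h (-1.55, q = 0.00915). FLNA, the filamin that cross-links actin into networks, was lower at 24 h (-1.09, q = 0.0132) and 96 h (-1.13, q = 0.00372). In the CCN family NOV was lower at 48 h (-1.95, q = 0.00902) and 96 h (-1.15, q = 0.0374), while WISP1 was higher at 96 h (1.89, q = 0.0139).

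The immediate early genes EGR2 (-2.64, q = 0.00011), FOSB (-2.29, q = 0.00034) and IER2 (-1.22, q = 0.000909), which encode transcription regulators induced within minutes by serum, were lower with vit C at 96 h. Of the YAP and TEAD targets AMOTL2, an angiomotin that binds YAP, was lower at 48 h (-1.39, q = 0.0232) and the transcription factor FOXF2 was higher (1.81, q = 0.0179). IGFBP3, a binding protein of insulin-like growth factors, was lower at 96 h (-1.16, q = 0.0102), and the kinase NUAK2 was lower there (-1.49, q = 0.034), with both vit C-treated arrays not well above background. No regulator or smooth muscle gene detected throughout either group was called with vit C.

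In UT cells 7 of the list genes tested were called higher and 3 lower at 24 h than at 8 h, 11 higher and 4 lower at 48 h, and 6 higher and 12 lower at 96 h. These are 9.86%, 15.7% and 8.22% of the genes tested in the higher direction, beside 1.37%, 5.54% and 8.90% of all genes, and 4.23%, 5.71% and 16.4% in the lower, beside 1.26%, 3.36% and 7.16%. At 96 h the share called higher was close to that of all genes, and nothing is read from it.

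**Figure D5:**
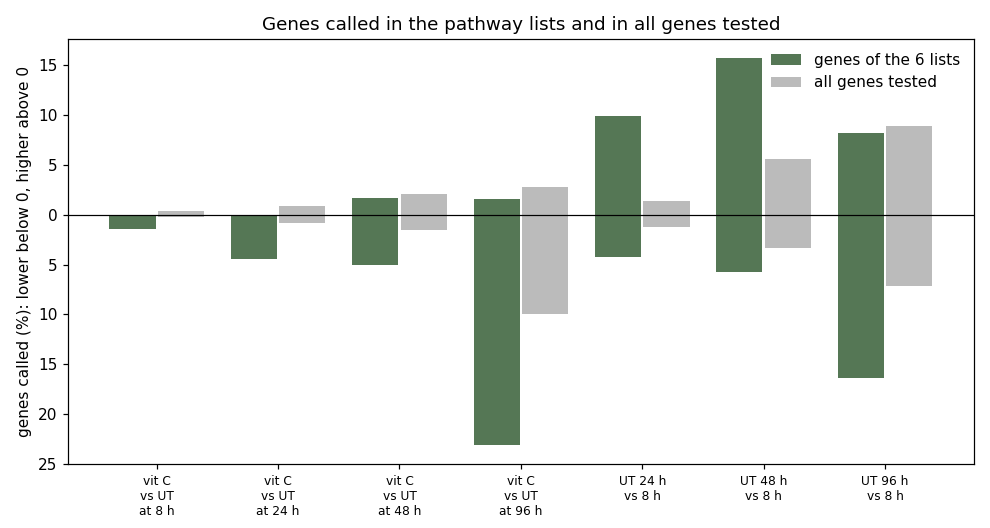
The share of genes called (vertical axis, percent, higher above 0 and lower below) among the tested genes of the 6 pathway lists (green) and among all genes tested (grey) in each of the 7 comparisons (horizontal axis). In UT cells the lists reach 15.7% higher at 48 h, and with vit C 23.1% lower at 96 h. The lists were chosen with earlier results of these data known, so the shares are a description.

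The members did not share 1 course. Over the 8 group means CYR61 and CTGF correlated at r = 0.97 and MYH11 with CTGF at 0.85, while ACTG2 correlated with CYR61 at 0.01 and with MYH11 at -0.37. The points are means of 2 or 3 arrays and share the PMA time course, so these are descriptions. Among 8646 genes compared, those most like ACTG2 were SEZ6 (r = 0.96), RETNLB (0.96), the transcript HsapiBX648323 (0.95), FLJ40722 (0.94) and AF123320 (0.93). At 48 h with vit C, where ACTG2 was lowest, RETNLB, HsapiBX648323 and AF123320 were well above background on 0 of the 2 arrays and SEZ6 on 1, so their likeness rests in part on signal near background. Those most like MYH11 were PSD3 (0.97), KIAA1189 (0.97), AK092577 (0.96), SLFN5 (0.96) and the chemokine CXCL1 (0.96), of which KIAA1189 was well above background on 7 of the 19 arrays and the other 4 on all.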

How the data were processed

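RNA of 19 cultures of THP-1 cells in 8 groups was measured. Per the methods, flasks were grown in triplicate for each condition and samples with poor RNA integrity were set aside, which left the arrays used. The intensity values are the processed signal that the authors extracted with Agilent Feature Extraction, version 10.5.1.1 per the file headers, with detrending and no normalization between arrays. The log2 values that the authors deposited as a series matrix were shifted to the 75th percentile of each array and served as an alternative. The scanner's well-above-background mark, the control type and the gene name of each spot were read from the deposited files as annotation rather than as measured scores.

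Control spots were left out, replicate spots averaged on the log2 scale, and each array's 75th percentile subtracted, which gave 50238 probes. A model of the 8 group means was fitted with limma 3.58.1 in R 4.3.3 (lmFit and eBayes, 2-sided), with Benjamini-Hochberg adjustment over probes of genes without opposing probes. A gene counted once, so the q bounds the false share of probes rather than of genes. The package data.table (version 1.17.8), Python 3.11.15 and matplotlib 3.10.9 were also used. The number of arrays limits the precision. The members and gene lists were chosen with earlier results of these data known. All 10 members are described, SRF, MKL1 and MKL2 always, and of each other list up to 4 genes called with vit C and detected throughout UT or vit C-treated arrays, with the largest change. The 5 genes most like ACTG2 and MYH11 were chosen by Pearson's r over group means among genes with an SD of at least 0.5. Promoter windows came from RefSeq (GRCh38.p14). Of the gene names, 15590 are current RefSeq symbols. The alternatives were the methods' t-test, quantile normalization, normexp (offset 50), a percentile taken over detected probes, dim probes left out, signals floored at 20, opposing probes kept, slide and replicate blocks, the series matrix, the mean over a gene's probes and each array left out. A further gene list is not reported here.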

Additional observations from a re-analysis of the deposited data

Results flagged for a closer look

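On the brightest probe, 3 members had all vit C-treated arrays below the UT arrays at some time-point and all above them at another. The share of all genes with this pattern was not counted, and nothing is read from the number. CYR61 differed by -0.87 at 8 h and -1.19 at 24 h, by -0.48 at 48 h, but by 0.50 at 96 h. TAGLN differed by -0.59 at 8 h and 0.50 at 96 h, but its second probe lay above the UT arrays at 8 h (0.10) and overlapped at 96 h (0.23). ACTA2 differed by 0.43 at 48 h and -0.82 at 96 h. The difference between the time-points was not tested, and no test for outlying arrays was made in groups of 2 or 3.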

How the results depend on the processing

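The counts of members called were those given in the report, or within 1.5 times of them, with quantile normalization, the percentile over detected probes, dim probes left out and the slide as a random block. The series matrix holds the same signals up to a constant for each array, so its equal counts show nothing further. With the methods' t-test 0 members passed after adjustment in each of the 7 comparisons. At 8 h with vit C the count was 1 in place of 2 with normexp, with signals floored at 20 and with the replicate block, and 0 with the slide as a fixed block, which gave 1 in place of 2 at 24 h. At 48 h normexp and the floor gave 2 in place of 1, and opposing probes kept gave 2 in place of 1 at 96 h. Deviations of arrays with the same replicate number correlated at -0.23 to 0.08. This used replicates 1 and 2 only and compared arrays on different slides, so it cannot show whether the numbers pair the arrays. The numbers are those of the sample titles, and the sample descriptions number the 48 h replicates otherwise. The replicate block changed no other call. With single arrays left out the count ranged from 0 to 1 at 8 h, 1 to 2 at 24 h and 0 to 2 at 96 h with vit C, and from 3 to 5 for UT cells at 96 h. For UT cells, differences that were not called turned sign. MYL9 at 48 h became -0.017 with normexp and ranged from -0.12 to 0.21 with arrays left out. At 96 h MYL9 became 0.22 and TPM1 -0.011 with the slide as a fixed block, and with arrays left out they ranged from -0.48 to 0.37 and from -0.050 to 0.25. MYH11 at 96 h was -0.13 as the mean over its probes and ranged from -0.32 to 0.57. With vit C no called value changed sign, but differences that were not called did. Normexp gave 0.0097 for CTGF at 8 h and -0.37 at 96 h. The slide as a fixed block gave 0.050 for ACTA2 and 0.32 for TAGLN at 24 h, and 0.27 for MYL9 and 0.63 for TAGLN at 48 h. Those of TPM1 at 8 h and TAGLN at 48 h, both near 0, turned under other settings too, and with arrays left out so did ACTA2 at 8 h, ACTG2, MYL9 and TPM1 at 96 h and TAGLN and TPM1 at 24 h. Normexp and the floor moved called differences of brightest probes by over 1.5 times on the linear scale, as given beside those values. MYH11 with vit C at 96 h was 2.71 as the mean over its probes. CYR61 was called at 8 h with vit C by its second probe, whose treated signals there were 11.8 to 16.8, under the floor of 20. Its values under these 2 settings are not given, and its brightest probe ranged from -1.08 to -0.28 over the settings. The causes were not tested. Low signal limits ACTA2, CTGF and MYH11 at 8 h and leaves CNN1 and CALD1 unmeasured.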
